A study of Xenopus tropicalis with 9 samples.

Results

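The genes described here encode the Wnt signalling pathway of the frog Xenopus tropicalis. They were taken from a table of 15288 genes by their symbols, without use of any measured value. The symbols were those that begin with wnt and a number, fzd and a number, dkk and a number, sfrp, dvl, dact, tcf7 or axin and a number, together with frzb, lef1, ctnnb1, lrp5, lrp6, apc, gsk3a and gsk3b. This gave 56 genes, namely 21 ligands, 12 receptors, 9 secreted antagonists, 10 intracellular proteins and 4 nuclear factors.

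RNA was sequenced from stage VI oocytes, the full-grown egg precursors, and from embryos of outbred frogs that had been obtained by in vitro fertilization and staged after Nieuwkoop and Faber. The oocytes had been freed from their follicles with collagenase, the embryos had been stripped of jelly with cysteine, and the parent frogs had been primed with hormone. No experimental treatment, strain or genetic change was named. The 6 polyA (PA) libraries, selected on oligo(dT), were made from oocytes and from embryos at stage 6, an early blastula, stage 9, a late blastula that has begun to transcribe its genome, stage 12, a gastrula, stage 16, a neurula, and stage 30, a young larva. The 3 RZ libraries, from which ribosomal RNA had been removed in place of a selection for poly(A), were made from the first 3 of these sources. Each library held the pooled RNA of 3 biological replicates, so that each condition had 1 library, and every difference below is a difference between libraries with no replicate check and no p-value. All samples were whole oocytes or whole embryos, in which more RNA per cell and more cells of a type cannot be told apart.

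Wnt proteins are secreted ligands that bind Frizzled receptors, with Lrp5 or Lrp6 as co-receptors for the branch that acts through beta-catenin. Without a ligand, a complex of Axin, Apc and Gsk3 marks beta-catenin for destruction, whereas with a ligand Dishevelled proteins help to block this complex and beta-catenin joins Tcf and Lef factors on DNA. In the frog embryo maternal components of the pathway set up the dorsal side, zygotic Wnt8 patterns the mesoderm and the posterior neural plate, and a beta-catenin independent branch guides the cell movements of gastrulation. Secreted antagonists of the Sfrp, Frzb and Dickkopf families limit the ligands in space.

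Abundance was measured as RPKM, a read density per length of exon and per mapped reads of the library. The read total by which each library's RPKM had been divided was worked out from 581 single-exon genes. It lay between 13422643 (PA stage 9) and 44490754 (PA stage 6), so that 3 reads on 1 kb of exon corresponded to between 0.0674 and 0.224 RPKM. These totals were inferred from the RPKM values and may differ from the numbers of aligned reads. The PA libraries differed in their general level. The median of 6789 genes with at least 1 RPKM in all 6 PA libraries moved by -1.22 on the log2 scale from the oocyte to stage 6, by 1.38 to stage 9, by -1.37 to stage 12, by 0.21 to stage 16 and by 0.09 to stage 30. In the RZ libraries the median of 8492 genes moved by -0.44 and 0.51. Changes are therefore given as deposited and relative to this median, and a gene is said to have risen or fallen only where it changed by 2-fold or more on both scales, with at least 1 RPKM in the higher library. Successive steps share a library, and the PA stage 6 library enters both early steps. All 7 oocyte markers listed were at 1 RPKM or more in both oocyte libraries, but also at PA stages 6, 9 and 12 and RZ stages 6 and 9. Their RZ sums were 256.6, 241.1 and 249.5 RPKM in the oocyte, at stage 6 and at stage 9. The oocyte list therefore does not separate the oocyte from the early embryo by this count. As deposited, the marker genes of the late blastula, gastrula, neurula and early larva had their highest PA sums at stages 9, 12, 16 and 30, respectively. The neurula sum was 119.9 RPKM at stage 16 against 111.5 at stage 12, a smaller change than that of the library median. Of its genes, myod1 (7.21 to 61.2 RPKM) and pax3 were highest at stage 16, zic1 at stage 12 and sox2 at stage 30. The neurula list therefore does not separate stage 16 from stage 12.

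In the oocyte the receptors, the destruction complex, beta-catenin and Tcf factors were present as RNA, whereas most ligands and secreted antagonists were not. Taking as maternal the genes with at least 1 RPKM in either oocyte library, 23 of the 56 Wnt pathway genes were maternal, a share below the 62.2% of all genes. They were 8 of the 10 intracellular proteins, 9 of the 12 receptors and 2 of the 4 nuclear factors, but only 3 of the 21 ligands (wnt11b, wnt7b and wnt11) and 1 of the 9 secreted antagonists (sfrpx). A further 17 genes were embryonic and not maternal, meaning that a later PA library held at least 10-fold the RPKM of the PA oocyte and at least 1 RPKM. The genes wnt1, wnt2b, dkk3 and dvl1 reached 1 RPKM later without meeting either definition. The remaining 12 genes, 9 of them ligands, stayed below 1 RPKM in all 9 libraries. In the PA libraries alone 44 of the 56 genes reached 1 RPKM, beside 12237 of all 15288 genes, so low genes were not particular to the pathway.

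**Figure D1:**
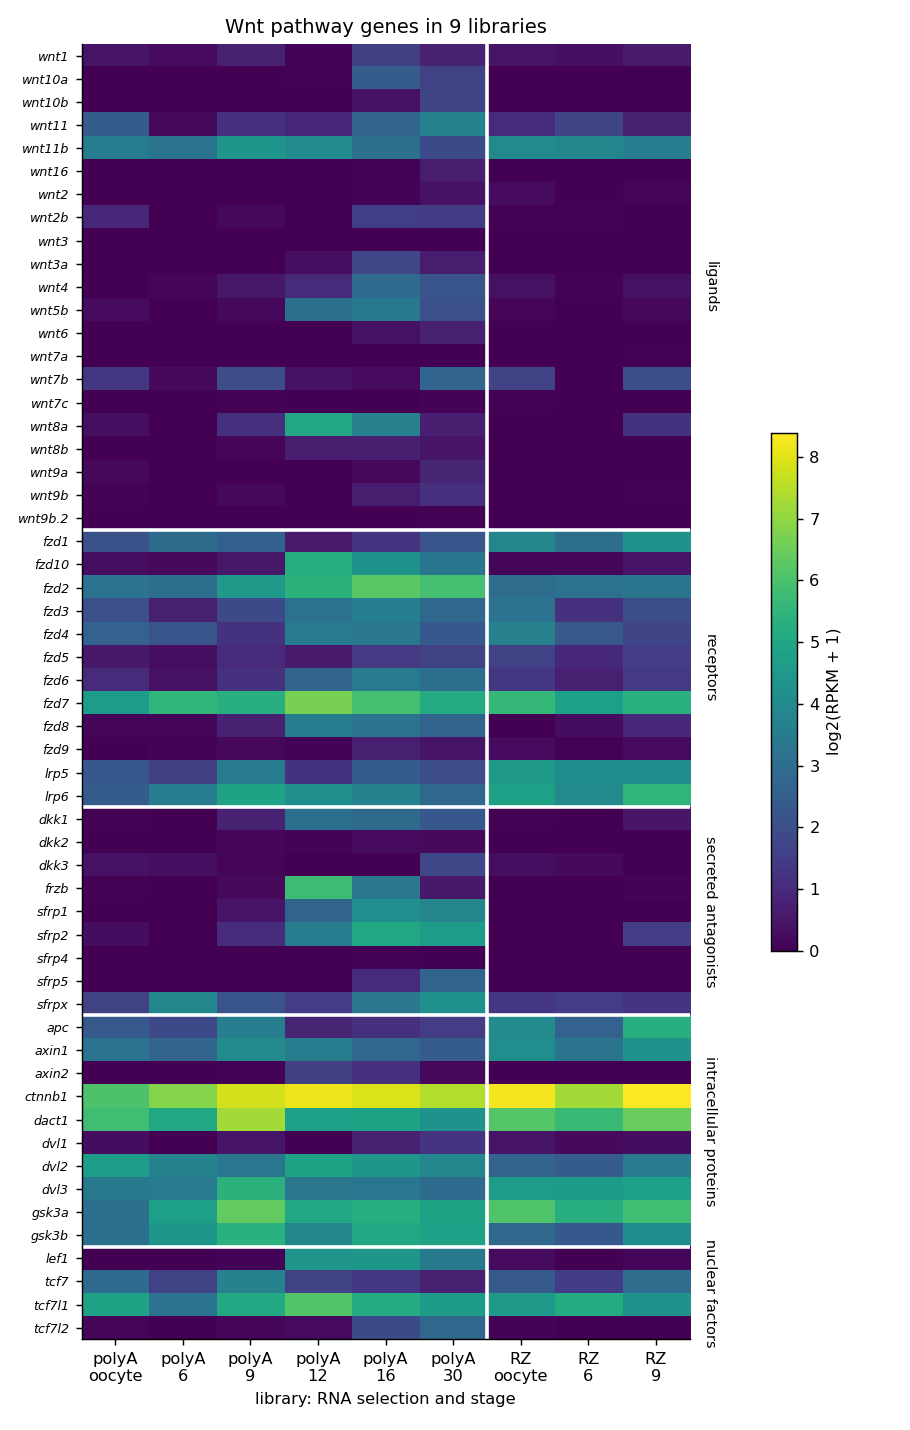
Levels of the 56 Wnt pathway genes (rows, grouped by role) in the 6 PA and 3 RZ libraries (columns, by stage), coloured by log2(RPKM + 1). Receptors and intracellular proteins are filled in from the oocyte on, most ligands and secreted antagonists only from stage 12 or 16, and ctnnb1 is the brightest row in every library, from 65.7 RPKM in the PA oocyte to 335.5 at RZ stage 9.

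Among the ligands, wnt11b, 1 of the 3 maternal ones, was the most abundant in every library up to stage 9. Its PA RPKM was 10.9 in the oocyte, 8.45 in the early blastula, 20.4 in the late blastula, 15.7 in the gastrula, 7.48 in the neurula and 2.70 in the larva. The RZ values were 15.2, 13.6 and 10.9 RPKM in the oocyte, at stage 6 and at stage 9. As deposited, the gene thus had its highest PA level in the late blastula while its RZ level was lowest there. Relative to the median its highest PA level was in the gastrula, with 22.4 against 11.2 in the late blastula. It fell from stage 12 to stage 16 (-1.07 on the log2 scale) and again to stage 30 (-1.47). Of the summed RPKM of all 21 ligands, wnt11b made up 57.4% in the PA oocyte, 93.4% at PA stage 6 and 74.1% at PA stage 9, and 78.2%, 83.0% and 63.6% in the RZ libraries.

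The related gene wnt11 had a different course. Its PA RPKM was 4.58 in the oocyte, 0.135 in the early blastula, 1.29 in the late blastula, 0.967 in the gastrula, 5.36 in the neurula and 12.0 in the larva, and its RZ RPKM was 0.996, 2.41 and 0.721. The PA level fell to stage 6 (-5.08 on the log2 scale) while the RZ level rose (1.28). It was higher in the larva than in any earlier library and made up 30.6% of the ligand RPKM there. Although the oocytes had been treated with collagenase, the PA oocyte library also held RNA of genes listed as ovarian follicle cell markers. These 9 genes summed to 4.80 RPKM, against 0.704 RPKM in the RZ oocyte and 0.0284 at PA stage 6. Of the PA oocyte sum cyp17a1 gave 2.56 RPKM, and it was the only gene of the 9 at 1 RPKM or more. Whether its RNA came from follicle cells was not tested. In the PA oocyte amh was at 0 and the other 8 markers were not, and in the RZ oocyte foxl2 and amh were at 0. The 6 blood markers, of which hba2 was at 0 in the PA oocyte and hba2, hbe1, hbg2 and alas2 in the RZ oocyte, summed to 2.14 and 0.653 RPKM in these libraries. The part of follicle or blood cells in the oocyte level of wnt11 was not tested. The same holds for wnt2b, listed at 0.932 RPKM in the PA oocyte, 0.0279 in the RZ oocyte and 0.00287 at PA stage 6.

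The third maternal ligand, wnt7b, was seen in the oocyte and late blastula but hardly at stage 6. In the PA libraries it had 1.54 RPKM in the oocyte, 0.153 in the early blastula, 2.98 in the late blastula, 0.315 in the gastrula, 0.186 in the neurula and 5.63 in the larva. The RZ libraries listed it at 2.27 RPKM in the oocyte, 0 at stage 6 and 3.04 at stage 9. PA and RZ thus had the same order of the early stages for this gene, with the lowest value at stage 6 in both.

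The zygotic ligands appeared one after another. The gene wnt8a, which encodes the ventrolateral mesoderm ligand of the gastrula, had 0.252 RPKM in the PA oocyte, 0 in the early blastula, 1.20 in the late blastula, 32.5 in the gastrula, 11.7 in the neurula and 0.624 in the larva. The RZ libraries listed it at 0, 0 and 1.33 RPKM. It was detected at stage 9 in both kinds of library and made up 55.0% of the ligand RPKM at stage 12. It rose from stage 9 to stage 12 by 4.75 on the log2 scale as deposited and by 6.12 relative to the median, and then fell by 1.48 to stage 16 and by 4.23 to stage 30.

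At stage 12 wnt5b, a ligand that acts mostly without beta-catenin, also rose. Its PA RPKM was 0.187 in the oocyte, 0.0222 in the early blastula, 0.140 in the late blastula, 7.48 in the gastrula, 9.58 in the neurula and 3.16 in the larva, with 0.134 RPKM or less in each RZ library. The change from stage 9 to stage 12 was 5.73 on the log2 scale. For wnt4, known from kidney and neural development, the PA RPKM was 0.0127, 0.106, 0.445, 1.06, 6.70 and 3.49 in the same order of libraries, and the RZ RPKM was 0.293, 0.0609 and 0.308. The levels of wnt4 before stage 12 thus lay below 1 RPKM in both kinds of library, and it rose at stage 12 (1.26) and at stage 16 (2.66).

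At stage 16 a further group of ligands rose. From stage 12 to stage 16 the PA RPKM of wnt10a went from 0.0409 to 4.505, that of wnt1 from 0.0577 to 1.99, that of wnt2b from 0.00510 to 1.97 and that of wnt3a from 0.255 to 2.42. Up to stage 9, wnt1 had 0.379, 0.173 and 0.653 RPKM in the PA libraries and 0.354, 0.263 and 0.529 in the RZ libraries. Its stage 12 value was thus its lowest, and neither wnt1 nor wnt2b met the embryonic definition. In later neural tissue wnt1 and wnt3a mark the dorsal midline. These 2 genes fell again by stage 30, to 0.691 and 0.571 RPKM, and wnt10a fell to 2.05. The gene wnt3a was listed at 0 in the PA oocyte, at PA stage 6 and in all RZ libraries, and had 0.0221 RPKM at PA stage 9. In the larva wnt10b (2.37 RPKM, against 0.315 at stage 16), wnt7b and wnt11 rose, and wnt9b was at its highest value of 1.19 RPKM.

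**Figure D2:**
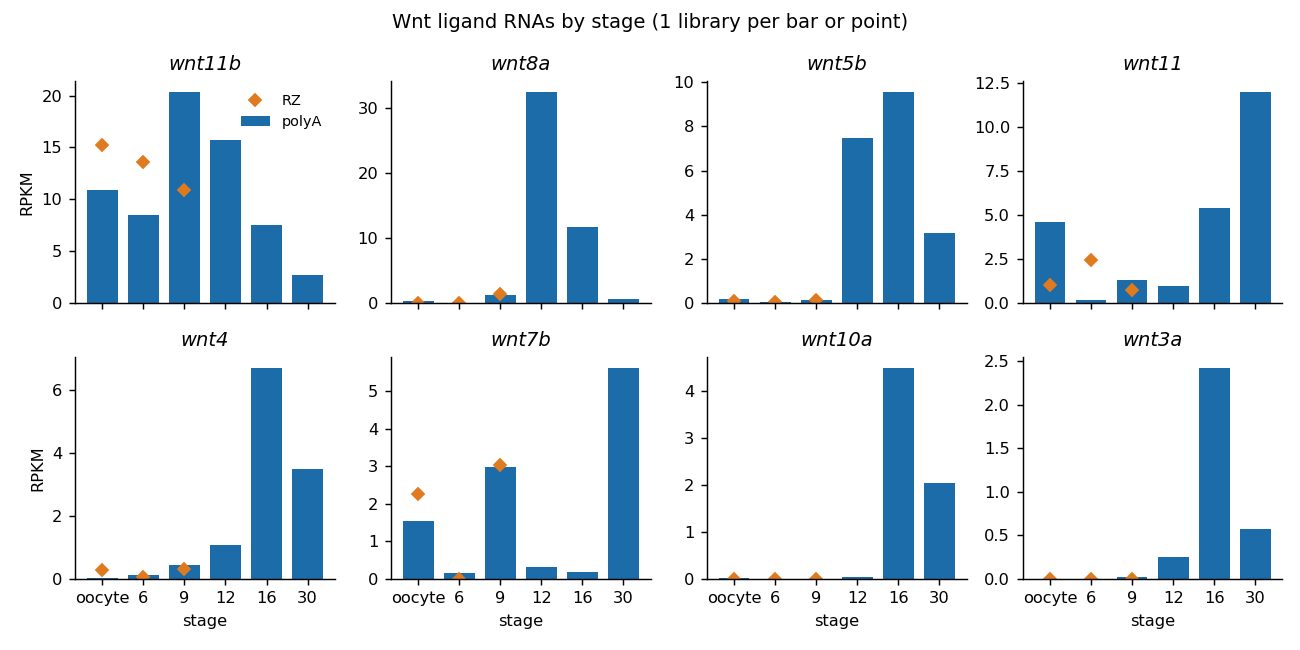
RPKM of 8 Wnt ligand genes by stage, with PA libraries as bars, RZ libraries (oocyte, stage 6 and stage 9 only) as diamonds, and a separate linear axis from 0 for each gene. As deposited, the bar of wnt11b is highest at stage 9 (20.4 RPKM), that of wnt8a at stage 12 (32.5), those of wnt5b, wnt4, wnt10a and wnt3a at stage 16, and those of wnt11 and wnt7b at stage 30.

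Counted together, 3 ligands were at 1 RPKM or more in the PA oocyte, 1 at PA stage 6, 4 at stages 9 and 12 each, and 9 at stages 16 and 30 each. The summed RPKM of the ligands was 19.0 in the PA oocyte, 9.04 in the early blastula, 27.5 in the late blastula, 59.1 in the gastrula, 54.0 in the neurula and 39.2 in the larva. The ligands that never reached 1 RPKM were wnt16, wnt2, wnt3, wnt6, wnt7a, wnt7c, wnt8b, wnt9a and wnt9b.2. Of these, wnt3 was listed at 0 in every library, and wnt7a was above 0 only at RZ stage 9 (0.0356 RPKM). The models of wnt7a and wnt9b.2 lie on short scaffolds, numbers 5917 and 891. The ligand wnt5a is not analysed here.

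In vertebrate genomes several Wnt genes lie side by side. In the JGI assembly used for the data, 3 such pairs of ligands had no other listed gene between them. On scaffold 2, wnt1 (77776115 to 77781718) lay 57318 bp from wnt10b (77839037 to 77879299), and wnt1 was highest at stage 16 and wnt10b at stage 30. On scaffold 9, wnt6 (4049496 to 4069026) lay 25591 bp from wnt10a (4094618 to 4129263), and the PA RPKM at stages 16 and 30 was 0.302 and 0.699 for wnt6 against 4.505 and 2.05 for wnt10a. On scaffold 10, wnt3 (21133290 to 21146919) lay 10159 bp from wnt9b (21157079 to 21163654), with wnt3 at 0 throughout and wnt9b above 0 in 5 of the 6 PA libraries. In each pair the neighbours thus differed in level or in the stage of their highest level.

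The Frizzled receptors were led by fzd7 and fzd2 in the PA libraries. The gene fzd7, which encodes the receptor of both maternal and gastrula Wnt signals in the frog, had 23.3 RPKM in the PA oocyte, 45.6 in the early blastula, 38.2 in the late blastula, 100.3 in the gastrula, 57.6 in the neurula and 34.9 in the larva. Its RZ RPKM was 46.9 in the oocyte, 25.9 at stage 6 and 39.8 at stage 9. As a single-exon gene, fzd7 could be given whole reads, 2532 in the PA oocyte and 10570 at stage 12, with exact Poisson 95% intervals of 22.4 to 24.3 and 98.4 to 102 RPKM. These intervals cover the counting error only. From the oocyte to stage 6 the PA and RZ values of fzd7 went in opposite directions (23.3 to 45.6 against 46.9 to 25.9), and at stage 12 it rose by 1.39 on the log2 scale as deposited and by 2.76 relative to the median.

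For fzd2, another broadly used receptor, the PA RPKM was 8.26 in the oocyte (7.64 to 8.92, 648 reads), 7.19 in the early blastula, 22.3 in the late blastula, 41.1 in the gastrula, 74.4 in the neurula (72.0 to 76.9, 3519 reads) and 58.7 in the larva. The RZ RPKM was 7.07, 8.02 and 8.55, and these 3 values lay within a narrow range while the PA value at stage 9 was outside it. The share of fzd2 in the summed Frizzled RPKM of the PA libraries was 18.3% in the oocyte and 11.1% in the early blastula. It was then 30.4% in the late blastula, 19.3% in the gastrula, 38.6% in the neurula and 44.9% in the larva. Over the same 6 libraries the share of fzd7 was 51.8%, 70.5%, 52.2%, 47.2%, 29.9% and 26.7%. In the RZ libraries fzd7 made up 51.7%, 53.5% and 51.6%, so that its PA stage 6 share stood apart from the other early ones. Shares within a family do not depend on how the libraries are scaled.

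Among the Frizzled genes fzd10 and fzd8 were embryonic. The gene fzd10, found in the posterior mesoderm and dorsal neural tube of vertebrates, had 0.253 RPKM in the PA oocyte, 0.154 in the early blastula, 0.463 in the late blastula, 35.3 in the gastrula, 18.9 in the neurula and 8.499 in the larva. Its reads numbered 21, 22, 20, 2843, 942 and 440 in these libraries, and 6, 6 and 29 in the RZ libraries. The interval at stage 9 (0.283 to 0.715 RPKM) lay far below that at stage 12 (34.0 to 36.6). The gene fzd8, a receptor of the anterior region, had 0.0745, 0.0791, 0.691, 10.8, 8.31 and 5.31 RPKM in the PA libraries, with 6 reads in the oocyte and 848 at stage 12. Its RZ reads were 0 in the oocyte (upper 95% limit 0.0510 RPKM), 15 at stage 6 and 68 at stage 9. In the PA libraries fzd8 was thus already above its oocyte interval (0.0274 to 0.162 RPKM) at stage 9 (0.463 to 0.993), while the intervals of fzd10 in these 2 libraries overlapped. In the RZ libraries this contrast was absent. There the stage 9 interval of fzd10 (0.253 to 0.543 RPKM) lay above its oocyte interval (0.0296 to 0.1755), and that of fzd8 (0.708 to 1.156) did so too.

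The gene fzd1 went the other way at gastrulation. Its PA RPKM was 3.22 in the oocyte, 6.79 in the early blastula, 5.06 in the late blastula, 0.524 in the gastrula, 1.42 in the neurula and 3.59 in the larva, with 13.1, 7.14 and 18.4 RPKM in the RZ libraries. From stage 9 to stage 12 it fell by 3.27 on the log2 scale, from 114 to 22 reads, and it was the only Frizzled with its highest PA value at stage 6. In the RZ libraries fzd1 made up 14.4%, 14.8% and 23.8% of the Frizzled RPKM, second to fzd7 in the oocyte and at stage 9.

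The other Frizzled genes lay at 11.7 RPKM or less. Among them fzd3, a receptor of the planar polarity branch, had 3.09, 0.664, 2.70, 7.91, 10.9 and 6.09 RPKM in the PA libraries and 8.09, 1.31 and 3.06 in the RZ libraries. It rose at stage 12 (1.55 on the log2 scale), as did fzd4 (2.93, from 1.36 to 10.4 RPKM) and fzd6 (2.12, from 1.30 to 5.64 RPKM). In RZ libraries fzd3 and fzd4 fell from the oocyte to stage 6 (-2.62 and -1.499). The gene fzd5 stayed at 2.12 RPKM or less, and fzd9 at 0.657 or less with 18 reads in its highest library. In all, 6 of the 10 Frizzled genes rose from stage 9 to stage 12 and fzd1 fell, where 13.6% and 26.8% of all genes tested did. The gene fzd9 was below 1 RPKM at both stages and was not tested. Below 1 RPKM at stage 9, fzd8 and fzd10 were tested through stage 12 alone and could not be called lower.

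The co-receptors lrp5 and lrp6 were both maternal. For lrp6, the main partner of Frizzled in beta-catenin signalling, the PA RPKM was 4.46 in the oocyte, 10.5 in the early blastula, 28.2 in the late blastula, 17.3 in the gastrula, 12.2 in the neurula and 6.10 in the larva, and the RZ RPKM was 26.3, 15.2 and 43.8. For lrp5 the PA RPKM was 3.93, 2.01, 9.64, 1.37, 4.40 and 2.94, and the RZ RPKM was 21.9, 16.1 and 16.0. The balance of the pair shifted, with lrp6 at 53.1% of their sum in the PA oocyte, 74.5% in the late blastula, 92.7% in the gastrula and 67.4% in the larva. From stage 9 to stage 12 lrp5 fell by 2.82 on the log2 scale, and at stage 16 it rose by 1.69. The change of lrp6 at stage 12 was -0.70 as deposited and 0.67 relative to the median, and so depended on the scaling.

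**Figure D3:**
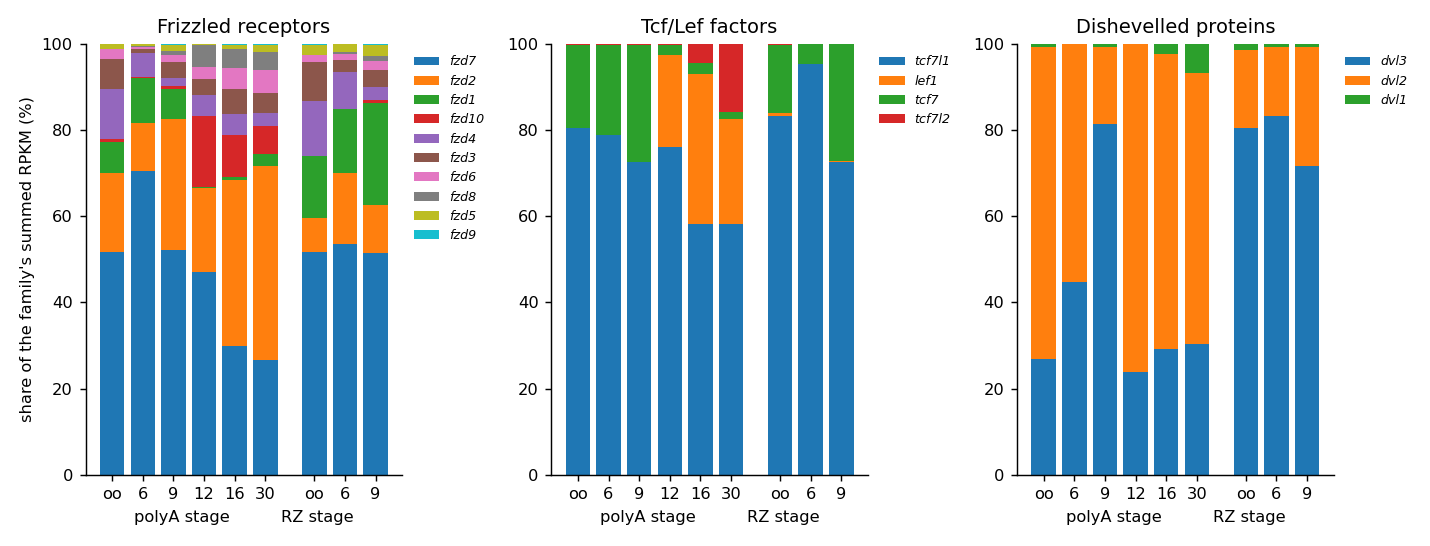
Shares (%) of each gene in the summed RPKM of its family, for the Frizzled receptors, the Tcf/Lef factors and the Dishevelled proteins, in each PA and RZ library (oo, oocyte; numbers, stages). The fzd7 part is 51.8% in the PA oocyte, 70.5% at PA stage 6, 52.2% at PA stage 9 and 26.7% at PA stage 30, where fzd2 has 44.9%. The parts of lef1 and tcf7l2 enter from stage 12 and stage 16, and dvl3 leads the RZ columns and PA stage 9 where dvl2 leads the other PA columns.

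Of the 9 secreted antagonists, those other than sfrpx stayed at 1.90 RPKM or less up to stage 9 in PA and RZ libraries. The summed PA RPKM of all 9 was 2.80 in the oocyte, 13.8 in the early blastula and 6.15 in the late blastula. It was 78.2 in the gastrula, 73.6 in the neurula and 66.8 in the larva. Nearly all of the stage 6 sum was sfrpx (13.6 RPKM). The gene frzb, which encodes a Wnt-binding protein of the gastrula organizer, had 0.0405 RPKM in the PA oocyte, 0 in the early blastula, 0.129 in the late blastula, 53.0 in the gastrula, 9.05 in the neurula and 0.472 in the larva. It was above 0 in 1 RZ library (stage 9, 0.0496 RPKM). The rise at stage 12 was 8.69 on the log2 scale as deposited and 10.06 relative to the median, and frzb then fell by 2.55 to stage 16 and fell by 4.26 to stage 30. It made up 74.9% of the summed sfrp and frzb RPKM at stage 12 and 13.5% at stage 16.

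The other antagonists had later or longer courses. The gene dkk1, the head inducer that blocks Lrp6, had 0.0460 RPKM in the PA oocyte, 0 in the early blastula, 0.798 in the late blastula, 7.30 in the gastrula, 6.55 in the neurula and 3.90 in the larva, and 0.0256, 0 and 0.425 RPKM in the RZ libraries. The gene sfrp2 had 0.204, 0.00761, 1.08, 10.4, 31.4 and 23.6 RPKM in the PA libraries, and was listed at 0, 0 and 1.90 RPKM in the RZ libraries. It was therefore at 1 RPKM or more at stage 9 in both kinds of library, as was wnt8a, after near 0 at stage 6. For sfrp1 the PA RPKM was 0.0166, 0, 0.382, 5.46, 16.2 and 13.1, with 0 in all RZ libraries.

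In the larva sfrp5 and dkk3 rose. The gene sfrp5, known from the frog endoderm and heart field, was listed at 0 up to stage 9 in PA and RZ libraries, at 0.0109 RPKM in the gastrula, 0.978 in the neurula and 5.41 in the larva. The gene dkk3 had 0.328 RPKM in the PA oocyte, was listed at 0 at stage 16 and had 2.46 at stage 30. The levels of dkk2 and sfrp4 stayed at 0.174 and 0.0286 RPKM or less. The gene sfrpx was unlike its family, with 2.16 RPKM in the PA oocyte, 13.6 in the early blastula, 3.58 in the late blastula, 1.87 in the gastrula, 9.13 in the neurula and 17.7 in the larva, and 1.502, 1.87 and 1.44 RPKM in the RZ libraries. It rose at PA stage 6 (2.65 on the log2 scale) and fell at stage 9 (-1.92), while the RZ values lay between 1.44 and 1.87 RPKM. Its gene model lies on the short scaffold 885.

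The intracellular proteins held the largest share of pathway RNA. The gene ctnnb1, which encodes beta-catenin, was the most abundant of the 56 genes in every library. Its PA RPKM was 65.7 in the oocyte, 114 in the early blastula, 224 in the late blastula, 288 in the gastrula, 244 in the neurula and 172 in the larva, and its RZ RPKM was 305 in the oocyte, 148 in the early blastula and 335.5 in the late blastula. As deposited, the PA value thus grew up to the gastrula while the RZ value was lowest at stage 6. Relative to the median the PA value was 164 in the early blastula and 124 in the late blastula. No step of ctnnb1 reached 2-fold on both scales, although relative to the median the change from the oocyte to its highest stage was 3.34 on the log2 scale, against 2.13 as deposited.

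Both Gsk3 kinases, which phosphorylate beta-catenin in the destruction complex, gained PA signal early. For gsk3a the PA RPKM was 7.40 in the oocyte, 25.6 in the early blastula, 81.6 in the late blastula, 32.0 in the gastrula, 37.3 in the neurula and 27.3 in the larva, and the RZ RPKM was 66.6, 37.4 and 55.6. For gsk3b the PA RPKM was 7.32, 20.8, 40.3, 13.5, 31.6 and 27.2, and the RZ RPKM was 5.92, 3.96 and 15.9. The 2 genes were thus alike in the PA oocyte (50.3% and 49.7% of their sum) and far apart in the RZ oocyte (91.8% and 8.16%). Both rose from the PA oocyte to stage 6, gsk3a by 1.79 and gsk3b by 1.503 on the log2 scale, while their RZ values were lower at stage 6 than in the oocyte. As deposited, with a difference of 3.46 on the log2 scale between the PA oocyte and stage 9, gsk3a was the only gene to be both maternal and embryonic by the definitions used.

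The scaffold proteins of the destruction complex differed in their course. As deposited, axin1 and apc were highest in the late blastula and axin2 in the gastrula, and relative to the median axin1 was highest in the gastrula as well, with 15.2 against 8.26 in the late blastula. For axin1 the PA RPKM was 8.09 in the oocyte, 5.68 in the early blastula, 15.0 in the late blastula, 10.7 in the gastrula, 5.89 in the neurula and 4.49 in the larva, and the RZ RPKM was 16.4, 8.35 and 18.6. For apc the PA RPKM was 4.22, 2.59, 10.9, 0.844, 1.22 and 1.86, and the RZ RPKM was 15.7, 5.21 and 37.3. From stage 9 to stage 12 apc fell by 3.69 as deposited and by 2.32 relative to the median, and in the RZ libraries it fell to stage 6 (-1.59) and rose to stage 9 (2.84). The gene axin2, a known feedback target of beta-catenin, had 0.0309 RPKM or less up to PA stage 9, 2.03 in the gastrula, 1.29 in the neurula and 0.129 in the larva, and was at 0 in the 3 RZ libraries. It made up 16.0% and 18.0% of the summed Axin RPKM at stages 12 and 16. Its model lies on scaffold 568.

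Among the Dishevelled genes, whose products carry the signal from Frizzled, dvl2 and dvl3 traded places. The PA RPKM of dvl2 was 25.3 in the oocyte, 12.4 in the early blastula, 8.93 in the late blastula, 28.4 in the gastrula, 20.8 in the neurula and 13.8 in the larva, and its RZ RPKM was 5.41, 4.45 and 10.2. The PA RPKM of dvl3 was 9.43, 10.1, 41.0, 8.96, 8.92 and 6.66, and its RZ RPKM was 24.1, 22.9 and 26.5. Thus dvl2 made up 72.4% of the Dishevelled RPKM in the PA oocyte and 18.1% in the RZ oocyte, and 17.8% at PA stage 9 against 76.0% at PA stage 12, where it rose by 1.67. The gene dvl1 had 0.396 RPKM or less up to stage 9, 0 in the gastrula, 0.6998 in the neurula and 1.47 in the larva. For dact1, which binds Dishevelled, the PA RPKM was 55.0, 30.9, 147.7, 25.6, 27.4 and 18.3, and the RZ RPKM was 70.5, 51.1 and 86.6. It was the second most abundant of the 56 genes at PA stage 9 and fell by 2.53 to stage 12.

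The nuclear factors changed in composition at gastrulation. The gene tcf7l1, whose product is the main maternal Tcf repressor of the frog, had 27.5 RPKM in the PA oocyte, 8.19 in the early blastula, 32.8 in the late blastula, 68.5 in the gastrula, 35.0 in the neurula and 22.6 in the larva, and 21.8, 34.9 and 18.7 RPKM in the RZ libraries. The lowest PA level and the highest RZ level of the early stages thus both fell on stage 6. The gene tcf7 was maternal, with 6.59, 2.17, 12.2, 2.15, 1.52 and 0.675 RPKM in the PA libraries and 4.18, 1.72 and 6.99 in the RZ libraries. It rose at stage 9 (2.50 on the log2 scale) and fell at stage 12 (-2.51).

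In contrast lef1 was not maternal. It had 0.00899 RPKM in the PA oocyte, 0.00207 in the early blastula, 0.0551 in the late blastula, 19.2 in the gastrula, 21.0 in the neurula and 9.42 in the larva, and 0.177 RPKM or less in the RZ libraries. The rise at stage 12 was 8.44 on the log2 scale as deposited and 9.81 relative to the median. Its stage 9 value lay below the 0.224 RPKM of 3 reads on 1 kb, so the size of this rise is uncertain. The change of lef1 from the PA oocyte to its highest stage was 11.19, and 4.45 with a pseudocount of 1 RPKM. The gene tcf7l2 stayed at 0.173 RPKM or less up to stage 12 and then had 2.71 and 6.08 RPKM. Within the family, in the PA libraries, tcf7 went from 27.0% in the late blastula to 2.38% in the gastrula, lef1 from under 1% to 21.3%, and tcf7l2 reached 15.7% in the larva, with tcf7l1 at 58.1% or more in every library.

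From stage 9 to stage 12, 17 of the 34 genes tested (those with at least 1 RPKM in either library) were 2-fold or more higher and 9 were lower as deposited, where 13.6% and 58.9% of all genes tested were called. On both scales 17 rose and 6 fell, against 13.6% and 26.8% of all genes. Of the 56 genes, 25 had at least 1 RPKM at PA stage 9. The genes wnt4, wnt5b, fzd8, fzd10, dkk1, frzb, sfrp1, axin2 and lef1 did not, and were tested through stage 12 alone. They could thus be called higher but not lower, and all of them are among the 17. The rule was the same for all genes. The median change of the 34 genes, these included, was 0.97 on the log2 scale, and that of all genes -1.38. The genes that rose were wnt4, wnt5b, wnt8a, fzd3, fzd4, fzd6, fzd7, fzd8, fzd10, dkk1, frzb, sfrp1, sfrp2, axin2, dvl2, lef1 and tcf7l1, and those that fell were wnt7b, fzd1, lrp5, apc, dact1 and tcf7. Summed over roles, the log2 change in RPKM at this step was 3.67 for the secreted antagonists, 1.10 for the ligands, 1.06 for the receptors, 0.99 for the nuclear factors and -0.48 for the intracellular proteins. The sum of the intracellular proteins turned to 0.89 when each library was divided by its median.

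On both scales the earlier steps called fewer Wnt pathway genes. From the oocyte to stage 6, 5 of 22 genes were higher and 7 lower as deposited (5.85% and 62.8% of all genes), and on both scales 5 rose (fzd1, lrp6, sfrpx, gsk3a and gsk3b) and 2 fell (wnt11 and wnt7b), where 5.85% and 27.9% of all genes did. From stage 6 to stage 9, 18 of 25 were higher and 2 lower as deposited (68.9% and 2.38% of all genes), and on both scales 5 rose (wnt11, wnt7b, wnt8a, sfrp2 and tcf7) and 2 fell (fzd4 and sfrpx), where 20.8% and 2.38% of all genes did. Most of the 18 higher values at stage 9 thus lay within 2-fold of the change of the library median. From the oocyte to stage 9 directly that median moved by 0.16 only.

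In the RZ libraries fewer genes moved at the first step. From the RZ oocyte to stage 6, 1 of 23 genes was higher and 8 lower as deposited (1.72% and 20.4% of all genes), and on both scales wnt11 rose and wnt7b, fzd3, fzd4 and apc fell (1.72% and 8.06%). From RZ stage 6 to stage 9, 14 of 25 were higher and 1 lower as deposited (32.2% and 7.31%), and on both scales wnt7b, wnt8a, lrp6, sfrp2, apc, gsk3b and tcf7 rose and wnt11 fell (18.2% and 7.31%). The genes wnt7b, wnt8a, sfrp2 and tcf7 therefore rose at stage 9 in both kinds of library.

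After gastrulation several ligands were among the genes that rose and among those that fell. From stage 12 to stage 16, 14 of 38 genes were higher and 3 lower as deposited (34.6% and 7.66% of all genes), and the same numbers rose and fell on both scales (29.7% and 7.66%). The 14 comprised 6 ligands (wnt1, wnt10a, wnt11, wnt2b, wnt3a and wnt4), 3 receptors (fzd1, fzd5 and lrp5), 3 antagonists (sfrp1, sfrp2 and sfrpx), gsk3b and tcf7l2, and the 3 were wnt11b, wnt8a and frzb. From stage 16 to stage 30, 8 of 44 were higher and 12 lower as deposited (25.8% and 15.8%), and 7 rose and 12 fell on both scales (23.8% and 15.8%). Those that fell included 6 ligands (wnt1, wnt10a, wnt11b, wnt3a, wnt5b and wnt8a), with fzd10, fzd4, frzb, axin2, lef1 and tcf7.

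**Figure D4:**
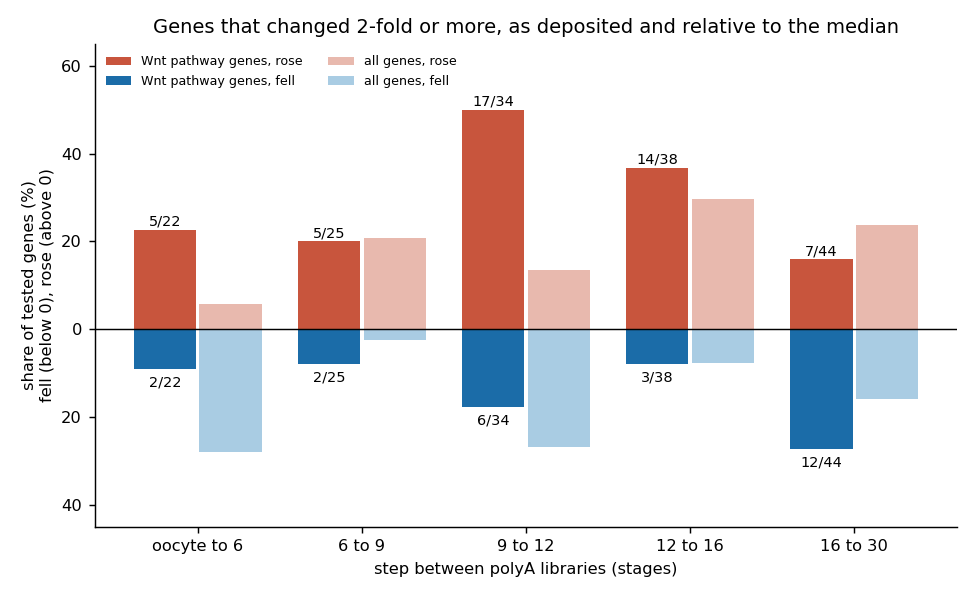
Share (%) of genes that rose (above 0) or fell (below 0) by 2-fold or more on both scales at each step between PA libraries, for the Wnt pathway genes (dark bars, with the number called over the number tested) and all genes tested (pale bars). At the step from stage 9 to stage 12, 17 of 34 Wnt pathway genes rose where 13.6% of all genes did. Genes below 1 RPKM in the first library of a step were tested through the second alone and could not be called lower.

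Of the 44 Wnt pathway genes with at least 1 RPKM in a PA library, 18 were embryonic, where 22.2% of all 12237 such genes were. They comprised 7 of the 12 ligands and 5 of the 7 secreted antagonists, but 2 of the 11 receptors. The definition uses PA libraries only, so it does not separate new RNA from a gain of poly(A) on stored RNA. For gsk3a, the one maternal gene among the 18, the RZ RPKM was 66.6 in the oocyte and 55.6 at stage 9. By the stage of the highest PA level as deposited, gsk3a was highest in the late blastula, 6 in the gastrula (wnt8a, fzd10, fzd8, dkk1, frzb and axin2), 7 in the neurula (wnt10a, wnt3a, wnt4, wnt5b, sfrp1, sfrp2 and lef1) and 4 in the larva (wnt10b, wnt9b, sfrp5 and tcf7l2). Of all 2721 embryonic genes, 2.68%, 8.09%, 38.9% and 50.1% were highest at these stages. Relative to the median, 25 Wnt pathway genes were embryonic, against 26.8% of all genes. Over the 44 genes, as deposited, the highest PA value fell on the oocyte for none (25.7% of all genes), on the early blastula for 1 (2.16%), on the late blastula for 10 (30.1%), on the gastrula for 11 (4.49%), on the neurula for 12 (15.3%) and on the larva for 10 (22.2%). With each library divided by its median, 4 genes were highest in the late blastula and 15 in the gastrula, where 13.1% and 11.25% of all genes were.

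The ratio of PA to RZ RPKM of a gene relates the RNA retained on oligo(dT) to the whole, and RNAs with short poly(A) tails, which many stored maternal RNAs carry, are retained less. In the oocyte the maternal Wnt pathway genes had low ratios. The median log2 PA/RZ of the 23 genes was -1.01, against 0.29 for all 9503 maternal genes with a ratio, and 14 of the 23 were RZ-enriched, with a log2 PA/RZ of -0.5 or lower, where 28.1% of all maternal genes were. These were 8 of the 9 receptors, 5 of the 8 intracellular proteins and wnt7b. The lowest values belonged to gsk3a (-3.17), lrp6 (-2.56), lrp5 (-2.48), ctnnb1 (-2.21), fzd5 (-2.11) and fzd1 (-2.03). The highest were those of dvl2 (2.23) and wnt11 (2.20), the latter with the follicle cell markers given above. The definition of maternal uses the same 2 oocyte libraries. The gene fzd5 met it through RZ alone (0.492 RPKM in PA, 2.12 in RZ) and wnt11 through PA alone (4.58 and 0.996), so the sign of their ratios was fixed by it. The other 21 genes had at least 1 RPKM in both oocyte libraries.

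At stage 6 the Wnt pathway genes had moved up relative to other maternal genes. The median of 22 genes was -0.55 and that of all maternal genes -0.63, and 13 of the 22 were RZ-enriched, against 54.1% of all maternal genes. With each stage centred on the median of all maternal genes, the RZ-enriched genes numbered 16 of 23 in the oocyte (35.7% of all) and 6 of 22 at stage 6 (34.4%). From the oocyte to stage 6 the log2 PA/RZ was higher by 1 or more for 7 of 22 genes as deposited (11.2% of all maternal genes) and for 13 when centred (26.3%). The 7 were fzd1, fzd7, lrp6, sfrpx, ctnnb1, gsk3a and gsk3b, and the 2 that were lower by 1 or more as deposited (47.3% of all) were wnt11 and tcf7l1. The values of ctnnb1 were -2.21 in the oocyte, -0.38 at stage 6 and -0.58 at stage 9, and those of gsk3a were -3.17, -0.55 and 0.55. PA and RZ levels were also compared for opposite directions on both scales, with log2 changes as deposited that differed by 2 or more. From the oocyte to stage 6 this held for wnt11, lrp6, gsk3a, gsk3b and tcf7l1 of 21 genes (13.9% of all genes). From stage 6 to stage 9 it held for wnt11, lrp5 and tcf7l1 of 22 (12.8%).

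At stage 9 the median of the 23 genes was -0.06, against 0.22 for all maternal genes. The 7 RZ-enriched genes (21.2% of all) were fzd1, fzd4, fzd5, lrp5, lrp6, apc and ctnnb1. Centred on the median, they numbered 9 (29.9%). Between the oocyte and stage 9, a comparison without the PA stage 6 library, 11 of 23 genes were higher by 1 or more in log2 PA/RZ (23.7% of all maternal genes). The 2 that were lower by 1 or more (21.5% of all) were wnt11 and dvl2, which went from 2.20 to 0.84 and from 2.23 to -0.20.

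**Figure D5:**
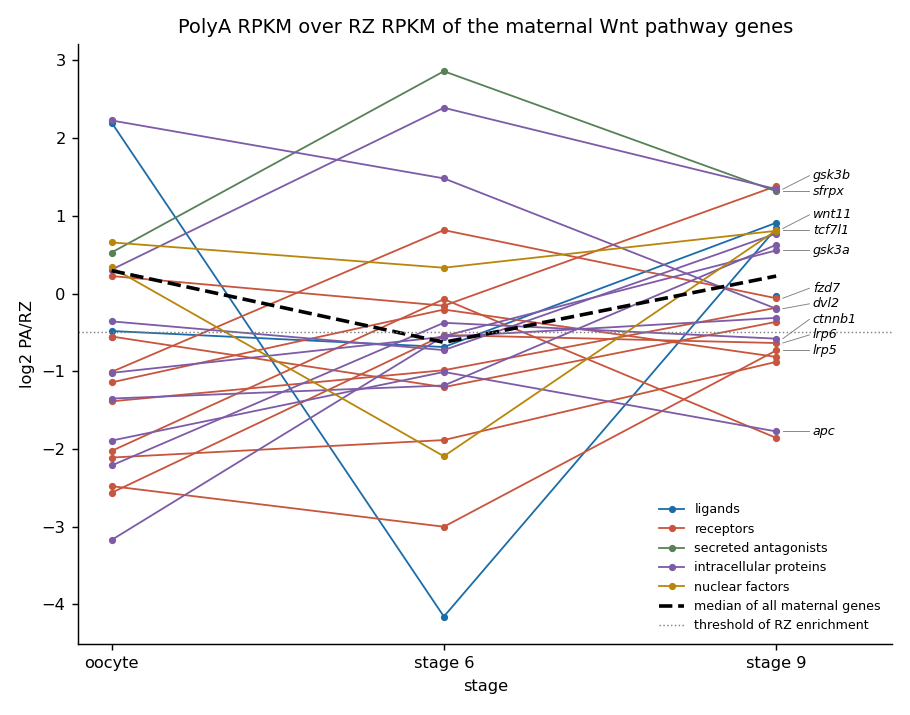
Log2 of PA RPKM over RZ RPKM for the 23 maternal Wnt pathway genes (lines coloured by role; some names at the right) in the oocyte, at stage 6 and at stage 9, with the median of all maternal genes dashed and the RZ enrichment threshold of -0.5 dotted; wnt7b has no value at stage 6 and is drawn as 2 points. Most lines start below the dashed line in the oocyte, where the median of the Wnt pathway genes was -1.01 against 0.29, and lie around it at stage 6.

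Further genes of the pathway were taken from a list of 65 in 9 functional classes, of which 56 were in the table. Of these, 34 were maternal (62.2% of all genes in the table), and of the 53 with at least 1 RPKM in a PA library 22 were embryonic (22.2% of all such genes). At the step from stage 9 to stage 12, 17 of 48 tested rose and 11 fell on both scales (13.6% and 26.8% of all genes), and from stage 16 to stage 30, 2 of 47 rose and 17 fell (23.8% and 15.8%). Known frog targets of Wnt signalling accounted for 10 of the 22 embryonic genes and 7 of the 17 that rose at stage 12, among them sp5 (0.369 to 16.0 RPKM), cdx1 (0.0299 to 36.7), cdx4 (0.0679 to 37.5) and msgn1 (0.290 to 51.4). The direct targets of maternal beta-catenin, sia1 and sia2, had 3.28 and 5.73 RPKM at PA stage 9 and 0.205 and 0.0452 at stage 12. They were also above 0 at RZ stage 9, with 1.07 and 3.34 RPKM, and at 0 at RZ stage 6.

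Among other antagonists and receptors, cer1, which encodes a secreted inhibitor of Wnt, Nodal and BMP ligands, had 84.1 RPKM in the gastrula, 0 in the late blastula and 1.17 in the neurula. Of the 4 other secreted antagonists listed, the 3 besides cer1 were maternal (62.2% of all genes). They were notum, with 16.4 and 18.5 RPKM in the PA and RZ oocyte, and wif1 and igfbp4, with 1.30 and 1.05 RPKM in the PA oocyte. In the RZ oocyte wif1 and igfbp4 had 0.343 and 0.217 RPKM, so both were maternal through PA alone. From PA stage 6 to stage 16 igfbp4 was listed at 0, and wif1 also met the embryonic definition. The part of follicle or blood cells in their PA oocyte levels was not tested. The Wnt5 receptor gene ror2 went from 0.249 RPKM in the late blastula to 36.2 in the gastrula and 22.6 in the neurula. Of the 4 other receptors listed, 2 were maternal (62.2% of all genes), namely ptk7 (8.29 RPKM in the PA oocyte) and ryk. The gene ryk also met the embryonic definition, with 4.44 RPKM in the PA oocyte and 55.7 at PA stage 9. Its RZ RPKM was 41.8 in the oocyte and 42.5 at stage 9. Of the kinases and turnover factors of beta-catenin, 9 of the 10 in the table were maternal (62.2% of all genes) and none was embryonic. At stage 12 none of the 9 tested rose and 5 fell (13.6% and 26.8% of all genes). The gene porcn, needed for the lipid modification of Wnt proteins, had 5.83 RPKM in the PA oocyte and 21.8 at stage 6, and wls, needed for their secretion, had 18.5 and 6.93. As deposited the 2 secretion genes thus went in opposite directions at this step. On both scales porcn rose but wls did not fall (5.85% of all genes rose and 27.9% fell). The RZ RPKM of wls was 16.5 in the oocyte and 16.8 at stage 6.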

How the data were processed

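The authors deposited 1 table of RPKM for 15288 genes in 9 libraries, averaged over the exons of each gene, after alignment with BWA 0.6.1 (version from the submitters' processing notes) to a JGI assembly and removal of reads mapping to several positions. Close paralogs may lose reads by this removal. No strand information was used here. All 9 columns hold RPKM as deposited, and their order was taken from the header. Coordinates are the table's, with the start written 1-based. Of the 56 symbols, 55 matched a RefSeq symbol (wnt9b.2 did not).

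With 1 library per condition (RNA of 3 replicates pooled), values, log2 differences without a pseudocount and counts were computed, with no test. Genes were tested at a step with at least 1 RPKM in either library and called at 2-fold or more. A gene below 1 RPKM in the first library was thus tested through the second alone and could not be called lower as deposited. For the relative scale each library was divided by its median over 6789 (PA) or 8492 (RZ) genes. Shares over all genes are given beside the counts of called genes at each step. Single-exon genes had reads within 0.001 of whole numbers in all libraries, and 7 Frizzled genes were among them. All 56 genes could be named, with every value printed for a list of pathway core genes. The genes, lists and thresholds were chosen with earlier results of these data known. The alternatives were other thresholds, pseudocounts, filters and scalings. Using RZ oocyte alone or PA stage 6 as reference were added after seeing the data. The scripts were tested on simulated data. Python 3.11.15, numpy 2.4.6, pandas 2.3.3, scipy 1.17.1 and matplotlib 3.10.9 were used.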

Additional observations from a re-analysis of the deposited data

Results flagged for a closer look

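Maternal Wnt pathway genes were looked at for PA and RZ levels that moved in opposite directions between the same 2 stages. The rule asked for this both as deposited and relative to the library medians, with the log2 changes as deposited differing by 2 or more. From the oocyte to stage 6 the rule was met by 5 of 21 genes, against 13.9% of all genes, and from stage 6 to stage 9 by 3 of 22, against 12.8%. The difference was not tested, since each value rests on 1 PA and 1 RZ library, and the 2 intervals share the stage 6 libraries.

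From the oocyte to stage 6 the log2 change in PA minus that in RZ was -6.35 for wnt11 (PA -5.08, RZ 1.28) and -2.43 for tcf7l1 (PA -1.75, RZ 0.68). It was 2.62 for gsk3a (PA 1.79, RZ -0.83), 2.08 for gsk3b (PA 1.503, RZ -0.58) and 2.03 for lrp6 (PA 1.24, RZ -0.79). The opposite directions of these 5 genes relative to the library medians were part of the rule. From stage 6 to stage 9 the difference was 4.99 for wnt11 (PA 3.25, RZ -1.74), 2.90 for tcf7l1 (PA 2.002, RZ -0.90) and 2.27 for lrp5 (PA 2.26, RZ -0.01). For lrp5 the RZ change was close to 0, so its direction rests on a small number.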

How the results depend on the processing

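No paired analysis was possible because each condition had 1 library, and no library could be left out within a condition. Of 85 alternative values for counts and medians, 43 lay near the reported value (within 1.5 times for a count, within 0.1 for a log2 median or change), 41 moved and 1 reversed. Medians of log2 PA/RZ that changed sign were counted among the 41 that moved. The log2 change of the summed intracellular RPKM from stage 9 to stage 12 reversed from -0.48 to 0.89 with each library divided by its median, which raised the change of ligands to 2.47, receptors to 2.43, antagonists to 5.04 and nuclear factors to 2.37. The 18 embryonic genes became 7 with a pseudocount of 1 RPKM. Scaling by the median gave 9 higher and 2 lower genes from PA oocyte to stage 6, 5 and 5 to stage 9, 7 lower to stage 16, and 4 genes highest at stage 9. In RZ it gave 2 and 4 to stage 6, and 7 and 3 to stage 9. A 4-fold threshold gave 1 higher and 3 lower to PA stage 6, 0 lower to stage 9, 8 and 1 to stage 16, and 4 and 4 to stage 30, and in RZ 0 and 2 to stage 6 and 6 and 0 to stage 9. A filter at 5 RPKM gave 3 lower to PA stage 6, 11 and 1 to stage 9, 6 higher to stage 16, and 4 and 7 to stage 30. A pseudocount of 1 RPKM gave 1 lower to stage 9 and 5 higher to stage 30. Centring moved the median log2 PA/RZ to -1.30 in the oocyte, 0.0756 at stage 6 (a change of sign) and -0.29 at stage 9, and gave 6 RZ-enriched genes at stage 6. With at least 5 RPKM in all 6 early libraries the stage 9 median was 0.63, against -0.06 (also a change of sign). At -1 or lower, 7 genes were RZ-enriched at stage 6 and 2 at stage 9. Of 82 alternative values for the change of 41 single genes from the PA oocyte to their highest stage, 74 moved by 0.1 or more, with differences between -6.74 and 1.22 on the log2 scale. Dividing each library by its median adds the same amount to every gene with the same highest stage. All 41 values of that setting moved for this reason, so they do not measure the stability of single genes.

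Depth limits the low values, since 3 reads on 1 kb correspond to 0.224 RPKM at PA stage 9, where genes below that level were not detectable with certainty. Among these were wnt5b, frzb, axin2 and lef1, so the sizes of their rises to stage 12 are uncertain. Counting intervals cover single-exon genes only, and no replicate error is known for any value.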
